A study of Drosophila melanogaster with 2 samples.

Results

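The core genes of the Drosophila Toll and Imd pathways were examined for peaks of CG7786, a protein of the basic leucine zipper (bZIP) class of transcription factors by its sequence. They are Tl, spz, tub, pll, cact, dl, Dif, imd, Rel and key, 10 of the 13945 protein-coding genes that the Ensembl annotation places on the large chromosome arms and chromosome 4. The genes were named by pathway membership, with earlier results of these data known, and their peaks were taken by position alone. The data are chromatin immunoprecipitation sequencing (ChIP-seq) of whole Drosophila melanogaster embryos aged 0 to 24 h, males and females pooled, from a transgenic strain, CG7786-GFP, with eGFP joined to the C terminus of CG7786. There are 2 libraries of 1 group, labelled biological replicates 2 and 3, and no second condition. Both libraries carry the same fusion, so no group without it can be set beside them. The description names an anti-GFP antibody, whereas the antibody field gives CG7786. The sources used here do not give the promoter that drives the fusion. Whole embryos mix all tissues and stages, so a site bound weakly in many cells and one bound strongly in few cannot be told apart.

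Toll and Imd are the signalling routes that lead to NF-kappaB transcription factors in the fly. In the Toll pathway the cleaved ligand Spätzle (spz) binds the receptor Toll (Tl), which acts through the adaptor Tube (tub) and the kinase Pelle (pll) on Cactus (cact), the inhibitor that holds the NF-kappaB factors Dorsal (dl) and Dif in the cytoplasm. This route sets the dorsoventral axis of the early embryo and later switches on genes against fungi and Gram-positive bacteria. In the Imd pathway the adaptor Imd acts, among others through Kenny (key), the regulatory subunit of the IkappaB kinase complex, on the NF-kappaB factor Relish (Rel).

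The DNA at 4 of the peaks is shown first, because these windows hold the strongest peak of the set and the sites of bZIP, NF-kappaB and core promoter type that were found. Each stretch is the plus strand of the RefSeq Release 6 sequence (dm6), 5′ to 3′, from a 200 bp window centred on the summit and cut where an annotated untranslated region begins. Capitals mark matches to the searched motifs. The cact stretch (chr2L:16325676-16325875, rank 190 of 4045) holds none of them. The pll stretch (chr3R:27253183-27253349) ends in a PAR-type bZIP site, TTATGTAA. The tub stretch (chr3R:4387554-4387741) holds overlapping matches to an NF-kappaB site and then the core promoter element motif 1, GGTCACACT, which ends at the base before the transcription start site (TSS). The dl stretch (chr2L:17450938-17451137) holds an AP-1 type bZIP site, TGACTCA, near the middle.
cact: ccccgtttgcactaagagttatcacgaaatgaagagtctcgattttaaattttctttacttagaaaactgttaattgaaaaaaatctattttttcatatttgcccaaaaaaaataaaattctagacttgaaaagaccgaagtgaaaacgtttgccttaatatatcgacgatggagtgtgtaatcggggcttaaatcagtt
pll: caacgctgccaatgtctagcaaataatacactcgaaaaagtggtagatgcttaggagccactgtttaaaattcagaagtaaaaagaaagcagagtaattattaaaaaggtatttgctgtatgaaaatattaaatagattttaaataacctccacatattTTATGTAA
tub: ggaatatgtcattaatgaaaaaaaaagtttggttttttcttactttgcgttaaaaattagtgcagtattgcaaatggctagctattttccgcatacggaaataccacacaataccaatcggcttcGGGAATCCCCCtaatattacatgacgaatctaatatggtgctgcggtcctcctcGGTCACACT
dl: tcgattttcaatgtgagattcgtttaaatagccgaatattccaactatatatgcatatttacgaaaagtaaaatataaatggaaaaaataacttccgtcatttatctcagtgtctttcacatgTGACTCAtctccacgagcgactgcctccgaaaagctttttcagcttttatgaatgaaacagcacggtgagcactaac

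Peaks were found at the start of 4 of the 10 genes: cact, imd, pll and tub. A start counted when a summit of the authors' list lay within 500 bp of any annotated TSS, and 19.5% of all protein-coding genes met that rule. The list is the authors' optimal one from the irreproducible discovery rate (IDR) procedure, which sets the length of a list by how well peak ranks repeat between replicates. It holds 4045 peaks on dm6, the 4045 strongest of the pooled list, and single peaks in it may still rank far apart in the replicates. With the gene body and 2000 bp upstream taken as the span, dl and Dif joined them, so that 6 of 10 genes had a peak, against 27.7% of all protein-coding genes. The spans held 8 peaks in all. Both cact and imd had 2, and 7.29% of all genes had 2 or more. No IDR peak lay in the span of Tl, spz, Rel or key. The groups are small: 1 gene more or less moves the count by 1 in 10.

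Genes with more TSSs and longer bodies have more room to catch a summit, so the counts were also read within those classes. Of the 5 members with 1 TSS, tub and pll had a peak there, against 14.9% of the genes with 1 TSS. Of the 5 with 2 to 4 TSSs, cact and imd had one, against 30.9% of such genes. Among the 4 members with a body over 10000 bp (Tl, cact, dl and Dif), 3 had a peak in the span, against 49.1% of genes of that length. Among the 6 with a body of up to 6000 bp, 3 had one, against 22.8%. The median over the 10 genes of the strongest pooled entry near a TSS was a signal value of 72.7. That over all protein-coding genes, a gene with no entry set to 0, was 23.9, and over the genes with an entry 57.2. In replicate 2 these medians were 27.3, 13.1 and 27.4 in the same order. The 27.3 counts key, which had no entry there, as 0, whereas the 27.4 leaves such genes out. In replicate 3 the medians were 40.1, 12.7 and 33.0.

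**Figure D1:**
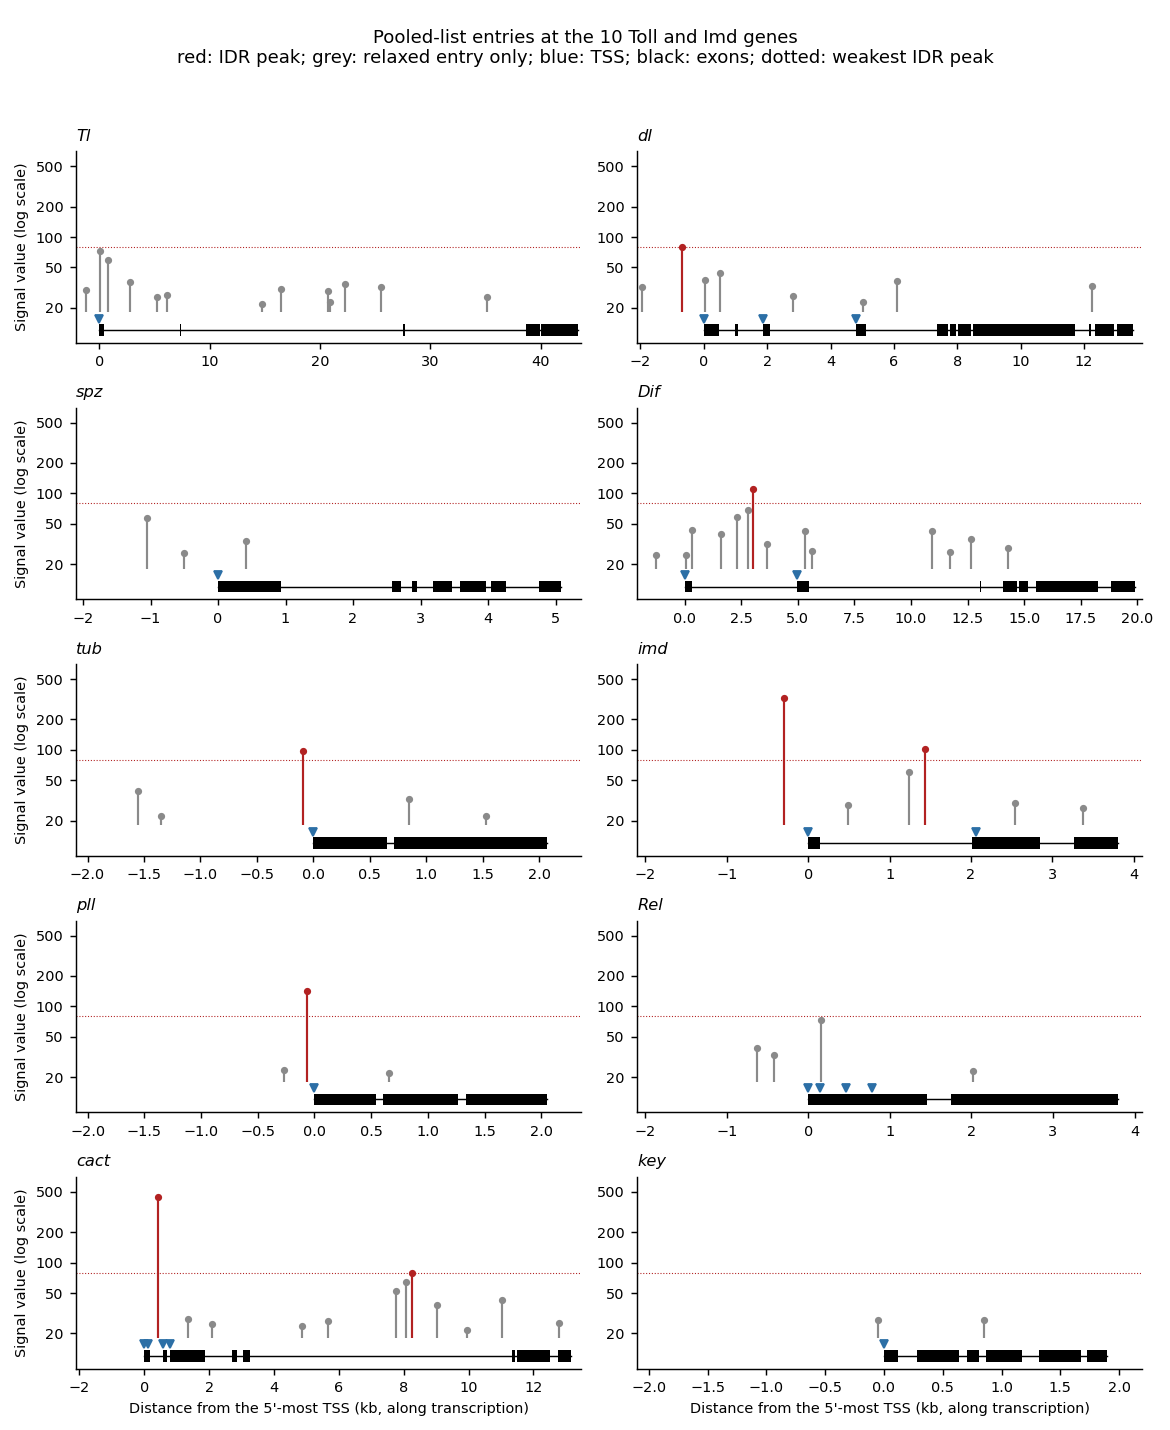
Entries of the pooled list at each of the 10 genes. The x axis is the distance from the 5′-most TSS in kb along transcription, the y axis the authors' signal value on a log scale; black boxes are exons, blue triangles TSSs, red stems IDR peaks and grey stems entries of the relaxed list only, and the dotted line is the weakest IDR peak (79.5). A red stem stands near a TSS in cact, imd, pll and tub, upstream in dl and inside an intron in Dif. Both cact and imd have a further red stem inside an intron.

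The inhibitor gene cact (FBgn0000250, chr2L:16313036-16326207, minus strand) had the strongest peak of the set. Its interval was chr2L:16325620-16325917, with a summit at 16325776 in an intron of the longer transcripts. The 4 annotated TSSs of cact all lay within 500 bp of that summit, at 151, 325, 356 and 431 bp, and no other gene had a TSS in the window. The pooled signal value, a score on the scale of the authors' peak caller, was 441.1, which ranked 190. In replicate 2 the signal value was 170.6 (rank 202) and in replicate 3 it was 270.7 (rank 184), each on the scale of its own list. The ranks therefore lay close together in both libraries. Of all protein-coding genes, 98.8% had a weaker pooled entry near a TSS or none.

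A further cact peak lay deep in the gene, at chr2L:16317745-16318148, in an intron 7473 bp downstream of the nearest cact TSS. Its signal value was 79.75 (rank 4032), close to the weakest of the list at 79.54. Replicate 2 ranked its nearest entry 2471 and replicate 3 ranked it 5306. It stood in a run of entries: pooled summits at 16318151 and 16318445 had ranks of 5281 and 7108 and stayed outside the IDR list. The cact gene thus had a strong, repeated peak among its TSSs and a weak intron peak near the limit of the list.

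The genes of the adaptor and the kinase that act below the receptor both had a promoter peak. The pll peak (gene FBgn0010441, chr3R:27251131-27253182, minus strand) had its interval at chr3R:27253048-27253451 and its summit 68 bp upstream of the only TSS. Its signal value was 143.1 (rank 1737), with 59.42 (rank 1742) in replicate 2 and 83.06 (rank 1851) in replicate 3. The summit fell on the same base in both replicates and the pool. This peak is shared: TfIIA-L, which encodes the large subunit of the general transcription factor TFIIA, has a TSS 180 bp from the summit on the opposite strand, and another of its transcripts spans pll. Which of these genes the peak belongs to cannot be told apart from its position.

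The tub peak (gene FBgn0003882, chr3R:4387742-4389813, plus strand) lay at chr3R:4387452-4387855, with its summit 88 bp upstream of the only TSS. No other gene had a TSS within 500 bp, and the nearest coding one, CG14646, started 2712 bp away. The pooled signal value was 96.64 (rank 3110). The libraries differed: replicate 3 gave 67.85 at rank 2462 with a −log10 q of 3.98, while replicate 2 gave 28.56 at rank 5879 with a −log10 q of 1.29. The 3.98 is the highest value of the replicate 3 list, but many entries share it, the dl peak at rank 4697 among them. Replicate 2 taken alone would have left tub below a list of 4045.

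The receptor and ligand genes had no IDR peak. The receptor gene Tl (FBgn0262473, chr3R:26799041-26842403, plus strand) has the longest body of the 10 genes, 43363 bp, and held 13 entries of the pooled list, all of them outside the IDR list. The strongest stood 65 bp downstream of its TSS with a signal value of 72.09 (rank 4569), just below the weakest IDR peak at 79.54. Replicate 3 ranked this site 4114 (signal value 46.49, −log10 q 3.98), whereas replicate 2 ranked its nearest entry 19663 (16.26, −log10 q 0.18). The entry at the Tl promoter therefore rests on replicate 3. At spz (FBgn0003495, chr3R:27064990-27070070, minus strand) the strongest pooled entry of the span lay 1047 bp upstream of the TSS, with a signal value of 57.15 (rank 6264). Here the replicates were alike, at ranks 6127 and 6305. Closer to the spz TSS the best entry ranked 14175, 413 bp downstream.

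**Figure D2:**
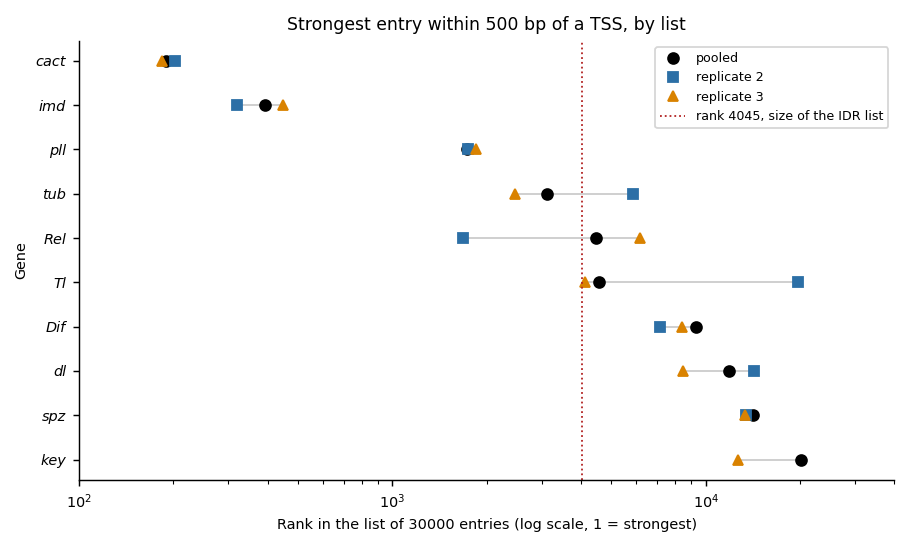
Rank of the strongest entry within 500 bp of any TSS of each gene in the pooled list (black circles), replicate 2 (blue squares) and replicate 3 (orange triangles). The x axis is the rank among 30000 entries on a log scale, the y axis the genes in order of pooled rank, and the dotted line marks rank 4045; cact, imd and pll lie left of it in all 3 lists, tub, Rel and Tl spread widely, and key has no entry in replicate 2.

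The NF-kappaB genes showed no promoter peak of the IDR list, and each of dl and Dif had 1 peak elsewhere. The genes are neighbours, Dif (FBgn0011274, chr2L:17413248-17433161) and dl (FBgn0260632, chr2L:17436830-17450364), both on the minus strand with 3668 bp between their bodies. The dl peak at chr2L:17450836-17451239 had its summit 674 bp upstream of the 5′-most TSS, outside the 500 bp window, in an exon of the noncoding gene lncRNA:CR46204 on the opposite strand. Its signal value was 80.23 (rank 4001), and the replicates ranked it 3531 (38.3) and 4697 (42.07). At the dl TSSs themselves the best pooled entry ranked 11864. The dl peak thus lay at the lower limit of the IDR list in the pool, and its rank in replicate 3 fell beyond 4045.

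The Dif peak was the stronger of these, at chr2L:17429963-17430366 with a signal value of 111.0 (rank 2548). It lay in the intron of the longest Dif transcript, 1966 bp upstream of the TSS shared by the shorter transcripts and 2996 bp downstream of the first. The TSS of lncRNA:CR44409, a noncoding gene on the other strand, stood 459 bp from the summit. Replicate 3 had a summit on the same base, ranked 1871 (82.44). In replicate 2 the nearest summit was 175 bp away, ranked 2996 (42.36). Further pooled entries stood beside the Dif peak, at ranks 4916 and 6092, outside the IDR list. The replicate 2 summit lay 26 bp from the first of these, nearer than to the peak. Near a Dif TSS the best pooled entry ranked 9284.

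Rel, the NF-kappaB gene of the Imd pathway (FBgn0014018, chr3R:9044183-9047977, minus strand), had its strongest pooled entry 5 bp downstream of one of its 4 TSSs. The signal value was 73.29 (rank 4468, −log10 q 3.25), just below the list. Replicate 2 ranked the same base 1680 (60.68), with a −log10 q of 3.66. That is the highest value of its list, but it is shared, for 1 by the imd intron peak at rank 1760. In replicate 3 the nearest summit was 194 bp away, at rank 10210. A better one, at rank 6165, lay 418 bp upstream of the 5′-most TSS. The pooled summit beside the latter lay within 500 bp of TSSs of Nmdmc and Mst85C, the next genes on that side. Rel thus showed the reverse of Tl and tub, with the higher rank in replicate 2.

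In the Imd pathway the adaptor gene imd had a strong promoter peak and key had almost none. The imd peak (gene FBgn0013983, chr2R:18409796-18413599, minus strand) lay at chr2R:18413779-18414009, 298 bp upstream of the 5′-most TSS. Its signal value was 325.4 (rank 392), with 141.0 (rank 320) in replicate 2 and 186.1 (rank 447) in replicate 3. The same summit lay nearer to a TSS of Dp1, 154 bp away on the opposite strand, a gene for an RNA-binding protein with KH domains. A further peak at chr2R:18411957-18412360 (signal value 102.7, rank 2863) fell in the imd intron and, at the same time, in a 5′ untranslated region of Dp1, 132 bp from the first Dp1 TSS. Replicate 2 ranked it 1760 and replicate 3 ranked it 4673. Both imd peaks are therefore also Dp1 promoter peaks by position. At key (FBgn0041205, chr2R:24785514-24787411, minus strand) the best pooled entry near the TSS had a signal value of 27.31 (rank 20184), replicate 3 ranked its own 12658, and replicate 2 had none within 500 bp.

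Of the 8 peaks at the 10 genes, 6 had a summit within 500 bp of a TSS of some annotated gene, against 55.3% of all IDR summits. For the Dif peak and the imd intron peak that TSS was a neighbour's. Of these 6, the imd and pll promoter peaks had TSSs of 2 genes in the window, against 42.0% of the 2237 such IDR summits that had TSSs of 2 or more. The cact and tub promoter peaks had TSSs of their own gene alone. The cact and imd promoter peaks were also narrow, 298 and 231 bp, while the other 6 were 404 bp, the median width of the list. Of all IDR peaks 17.6% were narrower than 300 bp, and of the 400 strongest 61.5% were.

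Of the 8 peaks at these genes, 4 ranked 4045 or better in both replicates: the promoter peaks of cact, imd and pll and the Dif intron peak. The Dif peak counted through a replicate 2 summit 175 bp away, which lay nearer to an entry outside the IDR list. Of all IDR peaks, 75.4% ranked 4045 or better in both, and of the weaker 2022 of the list 52.4%. Those weaker 2022 held the Dif, tub and dl peaks and the intron peaks of cact and imd, of which Dif alone passed in both. The tub peak passed in replicate 3 alone, and the dl peak and the intron peaks of cact and imd in replicate 2 alone. Of all IDR peaks, 23.7% passed in 1 replicate alone. Rel in replicate 2 was such a case just outside the list, where 52.6% of the 955 pooled entries ranked down to 5000 passed in 1 replicate only and 0.524% in both. Taken on its own, the top 4045 of replicate 2 named cact, imd, pll and Rel at a TSS, where 19.2% of all genes were called, and that of replicate 3 named cact, imd, pll and tub, where 19.4% were. In the span, replicate 2 added dl and Dif, with 27.5% of all genes called, and replicate 3 added Dif, with 27.8%. In the relaxed lists, which hold background entries too, all 10 genes had an entry near a TSS in the pool and in replicate 3, and 9 of 10 in replicate 2. The shares of all genes were 53.4%, 54.1% and 50.3%.

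**Figure D3:**
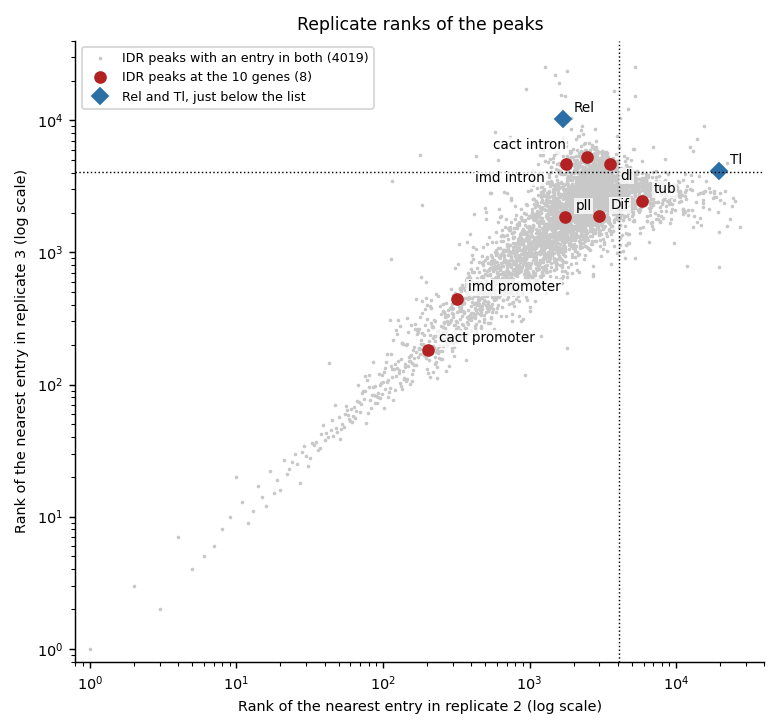
Rank of the nearest entry within 200 bp in replicate 2 (x axis) and replicate 3 (y axis), both on log scales, for the 4019 IDR peaks with one in both (grey), the 8 at the Toll and Imd genes (red) and the entries at Rel and Tl just below the list (blue). Dotted lines mark rank 4045; cact, imd and pll promoter peaks and the Dif peak lie on the better side of both lines, and Rel and Tl lie far off the diagonal on opposite sides.

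At least 1 of the searched motifs was found on either strand in 6 of the 8 summit windows of 200 bp, against 35.3% of all IDR windows and 38.9% of TSS windows. In 3 of the 6 the GAGA element was the only one. With windows of 400 bp the count was 7 of 8, against 60.4% of IDR windows. The PAR bZIP site, searched as TTACGTAA or TTATGTAA, was in the pll window alone, 96 bp from the summit. It was in 1.95% of all IDR windows and in 1.28% of windows of that length at the 5′-most TSS of each protein-coding gene. The AP-1 site TGACTCA was in the dl window, 26 bp from the summit, against 1.93% of IDR windows and 1.58% of TSS windows. The NF-kappaB site matched in the tub window, 30 bp from the summit, with 3 overlapping matches over both strands (1.19% and 1.10%). Motif 1, GGTCACACT, also stood in the tub window (2.08% and 5.26%). The GAGA element GAGAG, whose matches overlapped no other searched motif, was in both imd windows and in that of the cact intron peak (23.3% and 22.4%). The windows of the cact promoter and the Dif intron held none of the 10 motifs. No member window held the C/EBP site TTGCGCAA, the CRE TGACGTCA, the DRE TATCGATA, the E-box CACGTG or the Zelda site CAGGTAG, which were in 0.222%, 0.321%, 4.94%, 2.50% and 0.964% of IDR windows. GC content ran from 27.5% at the Dif peak to 52.0% at the imd intron peak, with 31.5% at the cact promoter, against a median of 37.0% over all IDR windows.

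Beyond the 10 genes, 92 further genes of both pathways were counted by role. A TSS peak was found at 20 of them (21.7%), near the 19.5% of all protein-coding genes, and a span peak at 31 (33.7%, against 27.7%). Of the 9 Imd signalling genes 5 had a TSS peak, among them the genes of the ubiquitin-conjugating enzymes ben (229.4) and eff (198.6) and of the kinase IKKbeta (166.4). Of the 9 Imd regulators 4 did: POSH (504.4), which encodes a scaffold with ubiquitin ligase activity, the deubiquitinase genes scny (349.7) and trbd (154.6), and Charon (291.8). Of the 7 Toll adaptors and regulators 3 did, aPKC (238.0), the adaptor gene Myd88 (115.6) and the arrestin gene krz (113.7).

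The shares in the roles are of few genes each and were not tested against each other or against the 19.5% of all genes. Of the 17 genes grouped under extracellular recognition and the protease cascade 2 had a TSS peak, or 11.8%. They were the serine protease gene modSP (113.7) and pip (96.19). Of the 13 further Toll receptors and Spätzle-family ligands 2 did, both of them receptors, Toll-7 (226.4) and Tollo (135.1), or 15.4%. Of the 8 Imd recognition genes only PGRP-LB (127.8), which encodes a peptidoglycan-degrading amidase, did. None of the 17 effector peptide genes, which are outputs of the pathways, had a TSS peak. A pooled relaxed entry stood there at 3 of them, against 53.4% of all protein-coding genes. Of that group Def alone had span peaks, 2, and the stronger (392.3) lay within 500 bp of a TSS of magu. Of the 12 target genes of Dorsal in the embryo 3 had a TSS peak, the strongest at Mef2 (129.3). The 5 weakest of the 20 genes, pip among them, had signal values from 81.71 to 98.15. The roles differ in gene length: the median body was 483 bp in the peptide genes and 6680 bp in the Toll adaptors and regulators. They also differ in the number of TSSs. Nearly all of the peptide genes have 1 TSS, whereas most Imd signalling genes have 2 or 3. Of all genes with 1 TSS 14.9% had a TSS peak, and of those with 2 to 4 TSSs 30.9%. The 53.4% for relaxed entries was not split in this way.

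**Figure D4:**
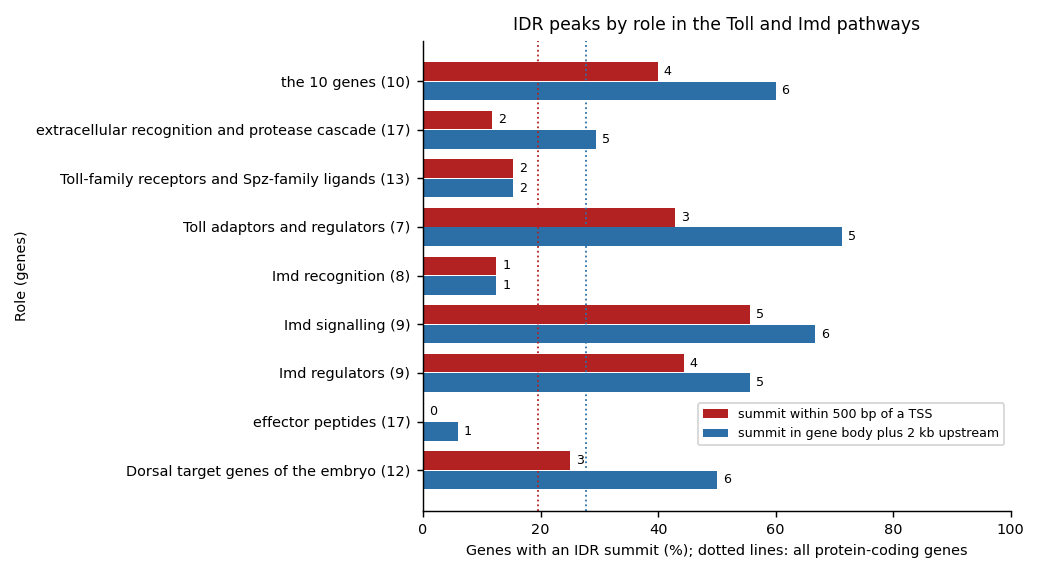
Share of genes with an IDR summit within 500 bp of a TSS (red) and in the gene body plus 2 kb upstream (blue) for the 10 genes and for each role of the further 92; the x axis is the percentage, the y axis the role with its number of genes, and the numbers beside the bars are gene counts. Dotted lines mark all protein-coding genes, 19.5% and 27.7%; Imd signalling genes (5 of 9 at a TSS) and peptide genes (0 of 17) lie at the ends.

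Several of these peaks also stood at another gene, and 42.0% of all IDR summits near a TSS had TSSs of 2 or more genes in the window. A TSS of a different gene lay within 500 bp of the summit at POSH (Ns2), Charon (CG4887), trbd (dmt), IKKbeta (CG5013 and lncRNA:CR45212), aPKC (ckn), krz (mod) and Diap2 (bug). At scny, ben, eff, Toll-7, Tollo, Myd88, PGRP-LB, modSP and Mef2 no other gene had one. Of the 20 genes with a TSS peak, 17 had their strongest one ranked 4045 or better in both replicates, among them the 15 with the strongest signal. Of all IDR peaks 75.4% did, but these include weaker peaks and peaks far from any TSS, so the sets are unlike. The peaks of the other 3 genes were among the weaker calls. The Diap2 peak ranked 2331 and 4826 in replicates 2 and 3, the rho peak ranked 8430 and 4063, and the htl peak ranked 3583 in replicate 2 with no replicate 3 summit within 200 bp.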

How the data were processed

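ChIP-seq peaks of CG7786-eGFP from 2 libraries of 1 group were analysed. Per the labels, chromatin was sonicated to 200 to 800 bp. The authors deposited 4 peak lists on dm6, described in the text files that go with the libraries: a relaxed list of peaks and background for replicate 2, for replicate 3 and for the pool, each derived from its alignments and 1 further file shared by all 3 whose kind those texts do not state, and the optimal IDR list drawn from those 3. No source used here names the aligner, the caller, the IDR threshold or a version. Each deposited list gives a signal value, a score on the caller's scale, used within its list only, and a deposited −log10 q-value. In the IDR list the −log10 q is 3.91 throughout. Its 4045 entries are the 4045 strongest of the pooled list. Each relaxed list holds 30000 entries. Read depth is unknown, so no interval that needs it was given. The 4 lists on dm3 were not used, and the experiment that the labels name as a possible control was not analysed here.

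Genes and TSSs came from Ensembl release 115 on the same assembly, and no dm6 peak ran past an arm's end. Of 102 list names 2 matched through a synonym. Entries were ranked by signal value, with ties at the better rank. Summits within 200 bp counted as the same site in another list. Motifs were searched on both strands, the NF-kappaB site in a degenerate form of 10 letters. The counting was checked on planted summits and motifs. With 1 group there was no comparison between conditions and no test was made: counts at the main settings stand beside the share of all protein-coding genes. The members and lists were chosen with earlier results of these data known. All members were named, and of the further genes the 15 strongest with a TSS peak. In addition, Def, pip, Diap2, rho and htl were singled out after their values were seen. Alternatives were other TSS windows and spans, the 5′-most TSS, interval overlap, the stronger 2022 peaks and each replicate alone. Python 3.11.15, pandas 2.3.3, numpy 2.4.6 and matplotlib 3.10.9 were used.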

Additional observations from a re-analysis of the deposited data

How the results depend on the processing

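Across the alternatives the number of the 10 genes with a TSS peak ran from 3 to 5, against 4. It was 3 with a 250 bp window, which dropped imd, and 3 in the stronger 2022 peaks, which dropped tub. It was 5 with a 1000 bp window or with interval overlap, both of which added dl. The cact and pll calls were present under every one of these settings. The number with a span peak was 3 with the gene body alone (cact, Dif and imd) and 3 in the stronger 2022 peaks (cact, imd and pll), against 6. The number of peaks in the spans was 4 with the gene body alone and 3 in the stronger 2022, against 8, and without 1 replicate it ran from 5 to 8, the 5 coming without replicate 2. Without 1 replicate the TSS count stayed at 4, with Rel in place of tub without replicate 3, and the span count ran from 5 to 6. Of the 92 further genes, 10 had a TSS peak in the stronger 2022 peaks, against 20, and 16 had a span peak with the gene body alone, against 31. The other 28 of the 35 alternatives for the counts stayed within 1.5 times. Peaks repeated in both replicates at 3 of the 10 genes with summits within 100 bp, against 4, and Dif was the gene lost. With the stronger 2022 peaks or the gene body alone there are fewer peaks or less room by construction. Shares of all protein-coding genes were taken for the main settings and for each replicate alone only. The counts under the other alternatives stand without one, and 19.5% and 27.7% do not apply to them. The cause of the lower number of peaks without replicate 2 was not tested. No paired analysis was possible because there is 1 group. The entries of dl, Rel, Tl and the cact intron lie near rank 4045 of the pool, and with the read depth unknown no counting error can be given for which side of it they fall on.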
